A study of Homo sapiens with 8 samples.

Results

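The BCL2 family decides at the mitochondrion whether a cell starts apoptosis, and 10 of its genes were followed here at the RNA level in A549 cells, a human lung adenocarcinoma line. The genes were listed by name and matched to their Ensembl identifiers on GRCh38. BCL2L1, MCL1, BCL2 and BCL2L2 encode antiapoptotic proteins, and BAX and BAK1 encode pore-forming effectors. BCL2L11, BAD, BID and HRK encode BH3-only proteins. All 10 of the 10 genes were among the 18661 genes with enough counts to be tested, out of 60624 genes in the data. The cells were untreated, treated with indisulam alone, treated with SPHINX31 alone, or treated with both (the combination), with 2 libraries in each of the 4 groups. Indisulam is a molecular glue that brings the splicing factor RBM39 to a ubiquitin ligase for degradation, and SPHINX31 inhibits SRPK1, a kinase of splicing factors. The sample records give 2 µM indisulam for 18 h for every library, the untreated ones included. The methods of the study give that dose and time for a separate experiment on pancreatic cancer cells. For the A549 experiment they give 0.5 µM indisulam, 5 µM SPHINX31 and 24 h. Records and methods thus differ, and the dose and time behind the values below are not certain. Per the study, the 2 libraries of a group are technical replicates of a single cell line, so that errors and p-values cover the spread between these libraries and not that between independent treatments.

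In healthy and malignant epithelium alike, the antiapoptotic proteins hold the effectors and the BH3-only proteins in a groove on their surface. BH3-only proteins are the sensors of stress: they fill that groove through a short helix, the BH3 domain, or act on BAX and BAK1 directly. Once freed, BAX and BAK1 permeabilise the outer mitochondrial membrane, cytochrome c leaves, and caspases are activated. The experiment asked whether more frequent splicing errors could account for the synergy of the drugs. In another part of the study BH3 mimetics, drugs that occupy the groove of BCL-xL or of several antiapoptotic proteins, were tested on indisulam-resistant cells. Per the study, resistant cells of a pancreatic cancer line were more sensitive to them than parental cells, whereas resistant A549 cells were not.

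The BH3 helix is what ties the 10 genes together, so the stretch of coding sequence behind it is shown for each. The windows were read from the MANE Select transcripts of GENCODE 44 on GRCh38 and are 30 bases long, 5′ to 3′ on the coding strand. The capitals mark the codon of the conserved leucine or methionine and the adjoining codons of the glycine (serine in BAD) and the aspartate of the core.
BCL2L1 (chr20:31721928-31721957, minus strand): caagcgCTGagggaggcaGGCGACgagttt
MCL1 (chr1:150578871-150578900, minus strand): gagaccTTAcgacgggttGGGGATggcgtg
BCL2 (chr18:63318355-63318384, minus strand): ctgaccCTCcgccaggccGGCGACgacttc
BCL2L2 (chr14:23307897-23307926, plus strand): caagccATGcgggcagctGGAGATgagttc
BAX (chr19:48955781-48955810, plus strand): gagtgtCTCaagcgcatcGGGGACgaactg
BAK1 (chr6:33575393-33575422, minus strand): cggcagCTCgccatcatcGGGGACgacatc
BCL2L11 (chr2:111150097-111150126, plus strand): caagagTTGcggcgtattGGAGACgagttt
BAD (chr11:64271628-64271657, minus strand): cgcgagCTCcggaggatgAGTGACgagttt
BID (chr22:17739421-17739450, minus strand): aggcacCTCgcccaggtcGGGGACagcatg
HRK (chr12:116881176-116881205, minus strand): gcccggCTCaaggcgctaGGCGACgagctg

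Each window lay within a single coding exon, and each of the 10 coding sequences held the core exactly 1 time. The core that was searched for, in all reading-frame codons, was a leucine or methionine, any 3 residues, a glycine or serine, an aspartate, and then glutamate, aspartate, glycine or serine. Its alternatives cover residues of single members, such as the methionine of BCL2L2 and the serine of BAD. A match in all 10 genes was thus given by the choice of pattern and is no result. The core is not specific to the family, since 2101 of 19061 coding sequences (11.0%) held it. Between genes, the windows were identical at 26.7% of positions (BCL2L2 and BID) to 70.0% of positions, the latter for BAK1 with BID, BCL2L1 with BCL2L2, and BCL2L11 with BAD.

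Between 51727369 and 63186989 read counts fell on genes in each library (median 57337791). The epithelial genes KRT8 and KRT18 had at least 183021 counts in every library and EPCAM at least 1377. The leukocyte marker PTPRC had 0 to 3 counts and CD3E had 0. The endothelial markers VWF and CDH5 and the fibroblast markers COL3A1, DCN and PDGFRB had at most 17 counts in any library, and CD14 (397 to 603), COL1A1 (175 to 270) and PECAM1 (83 to 133) were present at low level in all groups. CDKN2A, which A549 cells are known to lack, was listed at 145 to 197 counts. RBM39 RNA was at 154 and 157 counts-per-million (CPM, scaled by TMM factors) in untreated cells and at 361 and 360.3 CPM with indisulam, a log2 difference of 1.22, and degradation of the protein cannot be read from these data. SRPK1 RNA was lower by 0.33 on the log2 scale with indisulam (edgeR adjusted p = 0.000342) and differed by -0.04 with SPHINX31, with a 95% interval of -0.16 to 0.08.

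Scaled to exon length, 2 antiapoptotic genes were the highest of the 10 in untreated cells. MCL1, whose short-lived protein guards BAK1 and BAX, stood at 41.1 ± 0.489 CPM per kilobase of exon (SD, n = 2) in untreated cells, and BCL2L1, which encodes BCL-xL, at 36.8 ± 1.40. BAX was at 22.4 ± 0.315 on the same scale, followed by BAD, BAK1, BCL2L2 and BID. PMAIP1, a BH3-only family gene outside the 10, lay between BCL2L1 and BAX at 30.2 in untreated cells. Over all 8 libraries BAD ranged from 9.22 to 14.7, BAK1 from 10.7 to 12.9, BCL2L2 from 7.40 to 10.4 and BID from 5.68 to 7.16 CPM per kilobase. BCL2L11, which encodes BIM, was lower at 1.71 to 2.03. BCL2 at 0.154 to 0.209 and HRK at 0.0573 to 0.127 CPM per kilobase were the lowest of the 10, with 107 to 163 and 20 to 51 counts per library, and changes in them were measured with little precision. In the combination libraries BAX (38.5 and 37.6) exceeded MCL1 (34.8 and 35.8) and BCL2L1 (29.7 and 30.6) per kilobase, and was the highest of the 10 genes in both. The ranking depended on the length used. Per kilobase of the longest annotated transcript, mean BAX (57.5) exceeded mean MCL1 (50.9) already with indisulam. On that scale mean BAX (46.0) exceeded mean BCL2L1 (44.3) with SPHINX31. Full exon length was used also for genes such as BCL2L1 and BAD, whose exons are partly shared with an overlapping gene. Reads in shared parts may have been left uncounted, and the effect on the ranking was not tested.

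**Figure D1:**
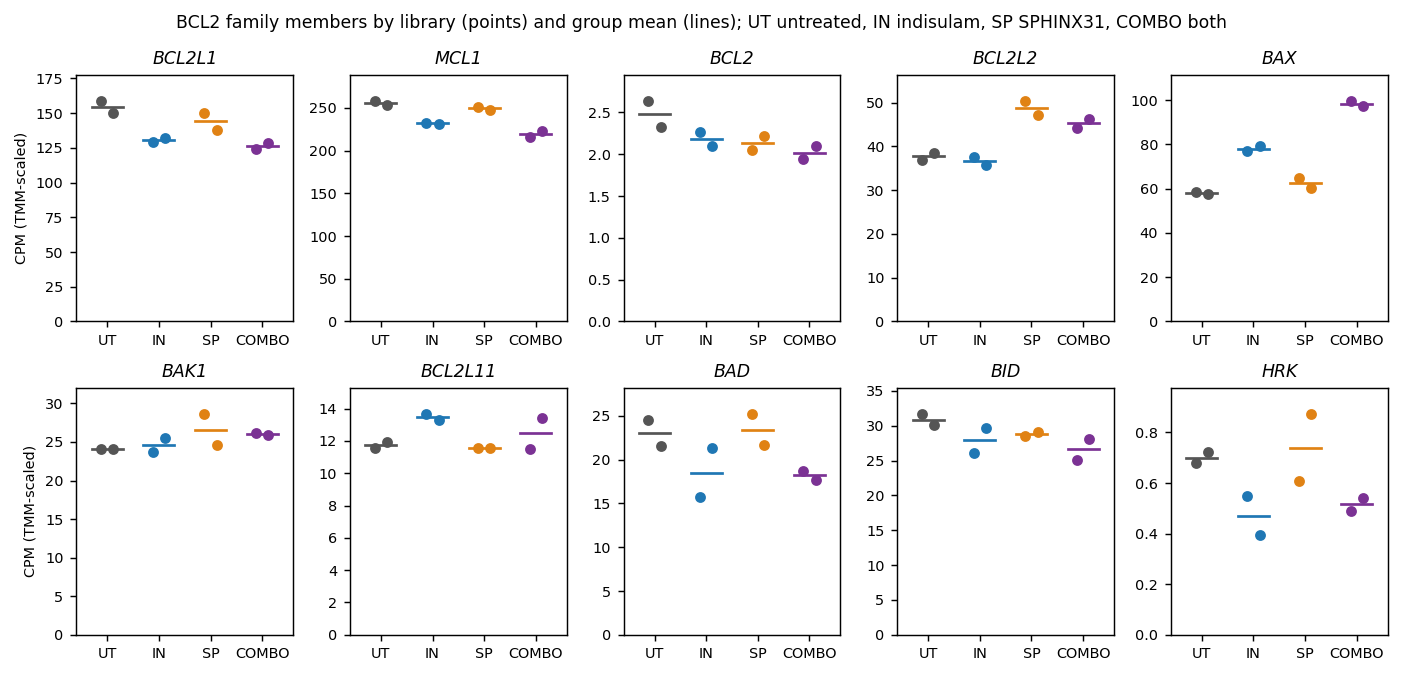
TMM-scaled CPM (vertical axes, from 0) of the 10 genes in each of the 8 libraries, with UT for untreated, IN for indisulam, SP for SPHINX31 and COMBO for the combination. Points are libraries and lines are means of 2 libraries. BAX rises from 58.5 and 57.4 CPM in untreated to 99.6 and 97.3 CPM in combination libraries, and BCL2L2 is high in both groups that received SPHINX31.

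Among the antiapoptotic genes, BCL2L1 and MCL1 were lower with indisulam and with the combination, whereas BCL2L2 was higher with SPHINX31 and with the combination. BCL2L1 (chr20:31664452-31723989, minus strand) had 159 and 150.4 CPM in untreated libraries, 129 and 132 with indisulam, 150.2 and 138 with SPHINX31, and 125 and 129 with the combination. The indisulam and combination libraries all lay below the untreated and SPHINX31 libraries, and the highest SPHINX31 library lay just below the lowest untreated library. BCL2L1 fell by 0.24 on the log2 scale with indisulam (SE 0.0545, edgeR adjusted p = 0.00291) and by 0.29 with the combination (SE 0.0545, adjusted p = 0.000626). With SPHINX31 the difference was -0.10, with a 95% interval of -0.22 to 0.02 (adjusted p = 0.281). The calls for indisulam and for the combination against untreated were kept under all 18 alternatives tried. In RNA from whole cultures, a change in the RNA per cell and a change in which cells remained cannot be told apart.

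BCL2L1 gives rise to a long, antiapoptotic and a short, proapoptotic protein by the choice between a pair of 5′ splice sites in the same exon, and the drugs used here act on splicing factors. The splice sites are shown with the last 3 exon bases, the GT of the intron in capitals and the next 4 intron bases.
BCL2L1 long form (chr20:31721649-31721657, minus strand): tggGTaaga
BCL2L1 short form (chr20:31721838-31721846, minus strand): cagGTagtg
The sites lie 189 bases apart, and 11 annotated coding transcripts use the first and 2 use the second. Counts per gene do not separate the forms, so the BCL2L1 values above are sums over both. ABALON, a noncoding gene on the opposite strand, overlaps 41.3% of the BCL2L1 exon sequence and had 4 to 19 counts per library. The strand setting of the counting is not given, so reads in the shared part may have been assigned to neither gene. This was not tested.

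MCL1 (chr1:150560895-150579738, minus strand) had 258 and 254 CPM in untreated libraries, 233 and 231 with indisulam, 251 and 248 with SPHINX31, and 216 and 222.5 with the combination. The 4 groups did not overlap. MCL1 fell by 0.14 with indisulam on the log2 scale (SE 0.0451, edgeR adjusted p = 0.0203) and by 0.22 with the combination (SE 0.0451, adjusted p = 0.0011), and differed by -0.04 with SPHINX31 (95% interval -0.14 to 0.06). The combination call was kept under all 18 alternatives. The indisulam call was not: it ended without untreated replicate 1 (-0.13, adjusted p = 0.135), untreated replicate 2 (-0.16, 0.0782), indisulam replicate 1 (-0.15, 0.0878) or indisulam replicate 2 (-0.13, 0.129), and with genes of low count kept in the fit (-0.14, 0.0542).

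BCL2L2 (chr14:23298790-23311751, plus strand), which encodes BCL-w, had 37.0 and 38.6 CPM in untreated libraries, 37.7 and 35.8 with indisulam, 50.4 and 47.2 with SPHINX31, and 44.3 and 46.3 with the combination. Both groups with SPHINX31 lay above both groups without it, and the untreated and indisulam libraries overlapped. BCL2L2 rose by 0.37 on the log2 scale with SPHINX31 (SE 0.0596, edgeR adjusted p = 0.00222) and by 0.26 with the combination (SE 0.0597, adjusted p = 0.00251), both calls being kept under all 18 alternatives. It was the only one of the 10 genes to pass with SPHINX31 alone. With indisulam the difference was -0.04 (95% interval -0.17 to 0.09). BCL2L2-PABPN1, a readthrough gene on the same strand that shares 16.8% of the BCL2L2 exon sequence, had 5 to 12 counts. Reads in the shared part may have been assigned to neither gene. PPP1R3E, on the opposite strand, overlaps 6.5% of the BCL2L2 exon sequence and had 422 to 833 counts. Its log2 differences were -0.53 with indisulam, -0.15 with SPHINX31 and -0.46 with the combination. The part of PPP1R3E in the BCL2L2 counts was not tested.

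BCL2, the founding member and the target of venetoclax, was close to the limit of what these libraries resolve. Its level was 2.64 and 2.33 CPM in untreated libraries, 2.27 and 2.10 with indisulam, 2.05 and 2.22 with SPHINX31, and 1.94 and 2.10 with the combination. All 6 treated libraries lay below both untreated libraries, and the treated groups overlapped with their neighbours. No difference passed the test, and the interval of the log2 difference between combination and untreated ran from -0.60 to 0.00 (adjusted p = 0.091).

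Of the effectors, BAX rose with indisulam and with the combination, and BAK1 passed against untreated only with the combination and only when GC content was corrected for. BAX (chr19:48954815-48961798, plus strand), which travels from the cytosol to the mitochondrion when activated, had 58.5 and 57.4 CPM in untreated libraries, 77.0 and 79.3 with indisulam, 64.7 and 60.1 with SPHINX31, and 99.6 and 97.3 with the combination. The 4 groups did not overlap, in the order combination, indisulam, SPHINX31, untreated. BAX rose 1.35-fold with indisulam (log2 difference 0.43, SE 0.0538, edgeR adjusted p = 2.77e-05) and 1.70-fold with the combination (0.76, SE 0.0536, adjusted p = 9.96e-08). Both calls were kept under all 18 alternatives, with log2 differences of 0.42 to 0.45 and of 0.75 to 0.82. With SPHINX31 the difference was 0.11 (95% interval -0.01 to 0.22, adjusted p = 0.251), which passed only when GC content was corrected for (0.15, adjusted p = 0.0366). Counts per gene do not separate the 12 annotated BAX transcripts. Their merged exons total 2587 bp, beside 1358 bp for the longest transcript. Which forms changed was not tested.

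BAK1 (chr6:33572547-33580293, minus strand), which resides in the mitochondrial membrane, had 24.1 and 24.03 CPM in untreated libraries, 23.6 and 25.5 with indisulam, 28.6 and 24.6 with SPHINX31, and 26.2 and 26.0 with the combination. The indisulam libraries fell on either side of the untreated ones. The log2 differences were 0.03 with indisulam (95% interval -0.13 to 0.19), 0.14 with SPHINX31 (-0.02 to 0.30) and 0.11 with the combination (-0.05 to 0.28). The last of these passed when GC content was corrected for (0.15, adjusted p = 0.0377).

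The listed BH3-only genes, BCL2L11, BAD, BID and HRK, were mostly lower or unresolved, and their calls rested on few libraries. BAD (chr11:64269830-64284704, minus strand), which neutralises BCL-xL, BCL-w and BCL2 when it is not phosphorylated, had 24.5 and 21.6 CPM in untreated libraries, 15.8 and 21.3 with indisulam, 25.2 and 21.7 with SPHINX31, and 18.8 and 17.6 with the combination. Indisulam replicate 1 was the lowest library, and indisulam replicate 2 was close to the lower untreated library. BAD fell by 0.32 with indisulam on the log2 scale (SE 0.119, edgeR adjusted p = 0.0436) and by 0.34 with the combination (SE 0.118, adjusted p = 0.0282). Without indisulam replicate 1 the indisulam difference was -0.11 (adjusted p = 0.433), without untreated replicate 1 it was -0.22 (0.257), and without combination replicate 1 or 2 it was -0.32 in each case (0.0694 and 0.0669). The combination difference was -0.24 without untreated replicate 1 (adjusted p = 0.193), -0.38 without combination replicate 1 (0.0825) and -0.30 without combination replicate 2 (0.158). Scaling to library totals alone also ended both calls (adjusted p = 0.0501 and 0.0591). GPR137, on the opposite strand, overlaps 23.7% of the BAD exon sequence and had 1212 to 1641 counts, with log2 differences of 0.33 with indisulam and 0.23 with the combination. Its part in the BAD counts was not tested, since the strand setting of the counting is not given in the sources used here.

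BID (chr22:17734138-17774770, minus strand), which links death receptors to mitochondria once cut by caspase 8, had 31.6 and 30.1 CPM in untreated libraries, 26.1 and 29.7 with indisulam, 28.5 and 29.0 with SPHINX31, and 25.1 and 28.1 with the combination. The untreated libraries were the highest, and the treated groups overlapped in part. BID fell by 0.22 on the log2 scale with the combination (SE 0.0754, edgeR adjusted p = 0.0295). The call ended without untreated replicate 1 (-0.18, adjusted p = 0.166), untreated replicate 2 (-0.25, 0.0563) or combination replicate 1 (-0.13, 0.269), and with library totals alone (-0.16, 0.0812). With indisulam the difference was -0.15 (95% interval -0.31 to 0.01), which passed without indisulam replicate 2 (-0.24, adjusted p = 0.0422).

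BCL2L11 (chr2:111119378-111168444, plus strand), whose product BIM binds all antiapoptotic members, had 11.5 and 11.9 CPM in untreated libraries, 13.7 and 13.3 with indisulam, 11.5 and 11.6 with SPHINX31, and 11.5 and 13.4 with the combination. The indisulam libraries lay above the untreated libraries, and the combination libraries spanned most of the range. The indisulam difference of 0.20 on the log2 scale (SE 0.0832, 95% interval 0.02 to 0.38) had an edgeR adjusted p of 0.0672. It passed in 6 of the 18 alternatives, among them GC correction (0.21, adjusted p = 0.0298) and a fit of the untreated and indisulam libraries alone (0.21, 0.0368). The fits without combination replicate 1 (0.20, adjusted p = 0.0374) and without combination replicate 2 (0.20, 0.0403) also passed.

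HRK (chr12:116856144-116881441, minus strand), which is selective for BCL-xL and best known from neurons, had 42 and 43 counts in untreated libraries, 32 and 20 with indisulam, 33 and 51 with SPHINX31, and 28 and 31 with the combination. The untreated libraries lay above the indisulam and combination libraries and within the range of the SPHINX31 libraries. At these counts the interval of the log2 difference was wide, from -1.13 to 0.02 with indisulam and from -1.002 to 0.12 with the combination, and a change was not detectable.

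**Figure D2:**
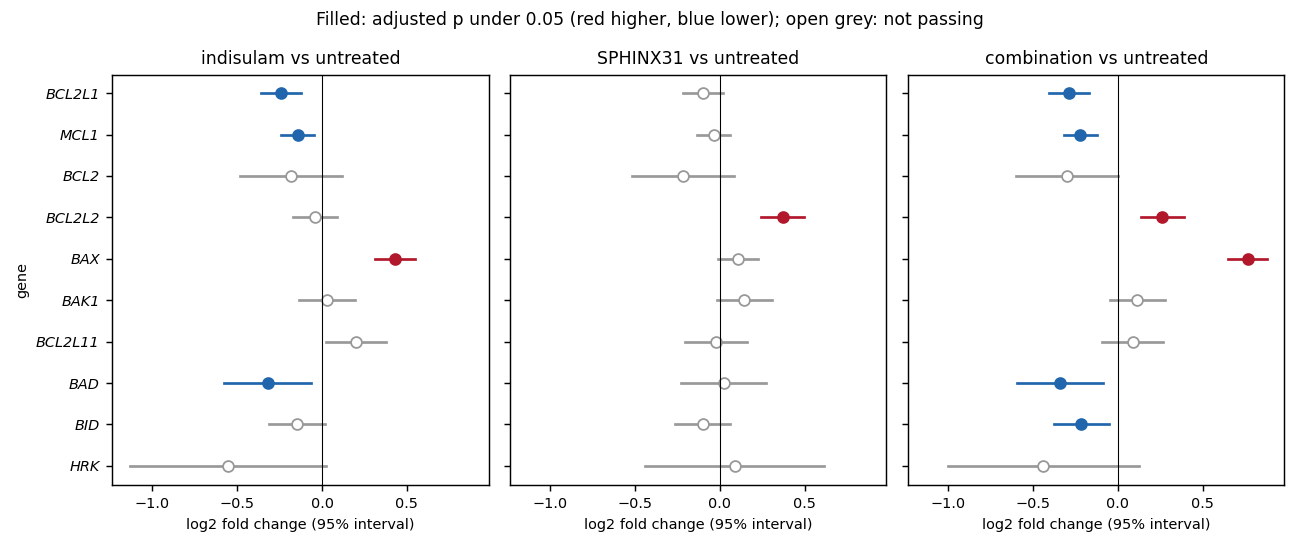
Log2 fold change against untreated (horizontal axis) of the 10 genes with indisulam, SPHINX31 and the combination, as points with 95% intervals from the edgeR fit. Filled red points passed upwards, filled blue points downwards and open grey points did not pass at an adjusted p of 0.05. BAX lies farthest to the right in both panels with indisulam (0.43 and 0.76), and HRK and BCL2 have the widest intervals.

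Counted over the 10 genes, indisulam raised 1 (BAX) and lowered 3 (BCL2L1, MCL1 and BAD) against untreated. That is 4 of 10, beside 43.7% of all tested genes that passed in either direction (20.1% higher and 23.5% lower). The median log2 difference of the 10 genes was -0.15, beside -0.00 for all tested genes, and their median absolute difference was 0.19, beside 0.26. SPHINX31 raised 1 of 10 (BCL2L2), beside 8.61% of all tested genes (4.94% higher and 3.67% lower), with a median of -0.00 for the 10 genes. The combination raised 2 (BAX and BCL2L2) and lowered 4 (BCL2L1, MCL1, BAD and BID), or 6 of 10 beside 50% of all tested genes (23.8% higher and 26.3% lower). The median of the 10 genes was then -0.22, beside 0.00 for all tested genes. The number that passed with indisulam was 2 without untreated replicate 1 and 2 without indisulam replicate 1. These comparisons share the untreated libraries.

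Set against each single drug, the combination differed from indisulam in BAX and BCL2L2, and from SPHINX31 in BAX, BCL2L1, MCL1 and BAD. Relative to indisulam alone, BAX was 1.26-fold higher (log2 difference 0.33, SE 0.0532, edgeR adjusted p = 0.00232) and BCL2L2 was 1.23-fold higher (0.30, SE 0.0600, adjusted p = 0.00828), so that 2 of 10 genes passed beside 7.50% of all tested genes (3.17% higher and 4.32% lower), a background of 1399 genes that was 440 without combination replicate 2, 609 without combination replicate 1 and 696 without indisulam replicate 1. The BCL2L2 call ended without indisulam replicate 2 (0.26, adjusted p = 0.058) or combination replicate 2 (0.27, 0.0852), whereas the BAX call was kept under all 18 alternatives. For BCL2L1 and MCL1 the differences between combination and indisulam were -0.05 (95% interval -0.17 to 0.07) and -0.08 (-0.18 to 0.02).

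Relative to SPHINX31 alone, BAX rose 1.58-fold with the combination (log2 difference 0.66, edgeR adjusted p = 4.49e-07), and 4 of 10 genes passed beside 49.9% of all tested genes (23.4% higher and 26.5% lower). BCL2L1 fell by 0.19 (adjusted p = 0.0114), MCL1 by 0.18 (0.0041) and BAD by 0.36 (0.0213). The BCL2L1 call ended without SPHINX31 replicate 1 (-0.11, adjusted p = 0.129) or combination replicate 1 (-0.15, 0.0989). The BAD call ended without SPHINX31 replicate 1 (-0.24, 0.197), combination replicate 1 (-0.40, 0.0722) or combination replicate 2 (-0.32, 0.13). BCL2L2 differed by -0.11 between combination and SPHINX31 (95% interval -0.23 to 0.02).

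The interaction asks whether the combination departs from the sum of the single-drug effects on the log2 scale. For BAX, the single-drug differences were 0.43 and 0.11 and the combination difference was 0.76, which gave an interaction of 0.23 (SE 0.0758, 95% interval 0.06 to 0.39). Its unadjusted p in the edgeR fit was 0.01 and its adjusted p over all tested genes was 0.461, so that it failed the correction. It was the only one of the 10 genes with an unadjusted p under 0.05, and its estimate stayed between 0.17 and 0.29 over the alternatives. None of the 10 genes passed the interaction test, nor did any of the 18661 tested genes (0.00%), 1584 of which had an unadjusted p under 0.05. DESeq2 called 31 genes, none of them among the 10. The intervals of BCL2L1 (-0.11 to 0.22), MCL1 (-0.18 to 0.10) and BCL2L2 (-0.25 to 0.12) all included 0, and that of HRK was the widest (-0.78 to 0.84).

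Summed by role, the antiapoptotic level per kilobase was 87.2 and 84.8 CPM per kilobase in untreated libraries, 76.1 and 76.2 with indisulam, 86.6 and 82.7 with SPHINX31, and 73.8 and 76.1 with the combination. The effector sum was 33.5 and 33.0 in untreated libraries, 40.4 and 42.2 with indisulam, 37.9 and 34.4 with SPHINX31, and 50.3 and 49.3 with the combination. The antiapoptotic sum was thus lowest in the groups with indisulam, and the effector sum was highest there. Their ratio was 2.60 and 2.57 in untreated libraries, 1.88 and 1.81 with indisulam, 2.28 and 2.41 with SPHINX31, and 1.46 and 1.54 with the combination. The 4 groups did not overlap in this ratio of RNA levels, which is a description without a test and says nothing of protein. Counts per gene do not separate transcript forms, so the antiapoptotic sum includes the short, proapoptotic form of BCL2L1. The limit on reads shared with overlapping genes applies to these sums as well. BOK, a family gene outside the 10, was left out of the effector sum and was at 3.05 to 3.89 CPM per kilobase. MCL1 made up 46.5% to 49.1% of the antiapoptotic sum and BCL2L1 39.8% to 43.4% in all libraries. The share of BCL2L2 was 8.77% and 9.40% in untreated libraries and 12.4% and 12.6% in combination libraries, and BCL2 contributed at most 0.24%. The sum of BCL2L11, BAD, BID and HRK was 23.3 and 21.3 in untreated libraries and 17.2 and 21.2 with indisulam. It was 23.0 and 21.1 with SPHINX31 and 18.4 and 18.8 with the combination, and followed BAD, the most abundant of these genes. This sum is not a total of BH3-only RNA, since genes such as PMAIP1 and BBC3 were left out. Mean PMAIP1 alone was higher than this sum in each group. It was at 30.2 CPM per kilobase in untreated, 23.0 in indisulam, 36.9 in SPHINX31 and 27.3 in combination libraries.

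**Figure D3:**
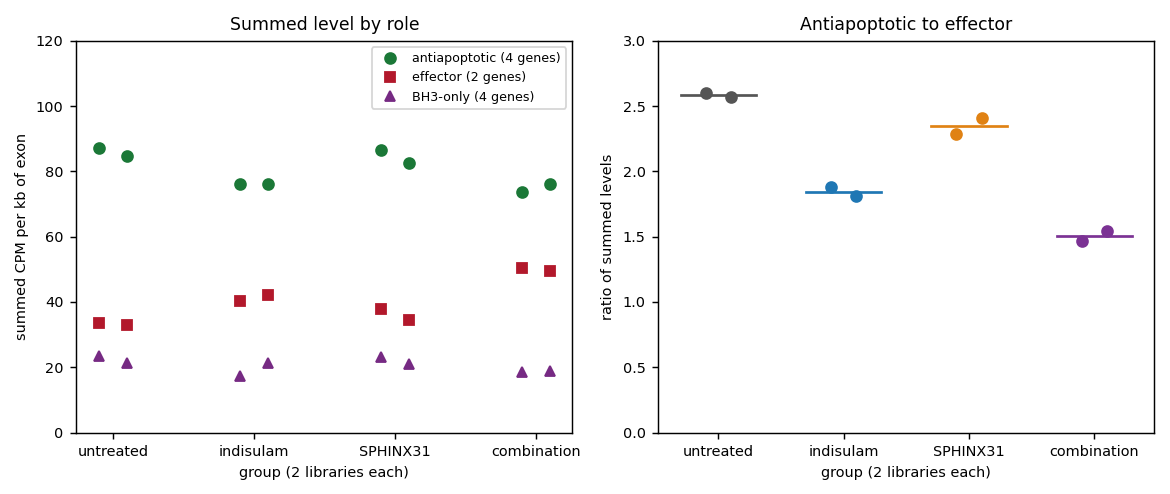
Left, CPM per kilobase of exon (vertical axis) summed over the 4 antiapoptotic, 2 effector and 4 BH3-only genes in each library. The BH3-only sum leaves out PMAIP1 and BBC3, and the effector sum leaves out BOK. Right, the ratio of the antiapoptotic to the effector sum in each library, with group means as lines. The ratio runs from 2.60 and 2.57 in untreated down to 1.46 and 1.54 in combination libraries.

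The family has further genes, of which 13 were listed and 11 tested. BCL2A1 and BCL2L10 had at most 2 and 3 counts in any library and were not tested. Indisulam raised 2 of the 11 and lowered 2, SPHINX31 raised 4 and lowered 0, and the combination raised 4 and lowered 2. In either direction that is 4, 4 and 6 of 11, beside 43.7%, 8.61% and 50% of all tested genes, and 3 to 5, 1 to 4 and 5 to 7 when libraries were left out in turn. BMF, which encodes a BH3-only protein known to respond to loss of anchorage, had 20 and 28 counts in untreated libraries, 72 and 49 with indisulam, 57 and 69 with SPHINX31, and 146 and 136 with the combination. Each single drug lay above untreated and the combination lay above both, although BMF RNA remained scarce. BMF rose 2.79-fold with indisulam (log2 difference 1.48, SE 0.244, edgeR adjusted p = 0.000292), 2.82-fold with SPHINX31 (1.49, SE 0.243, adjusted p = 0.0023) and 6.20-fold with the combination (2.63, SE 0.213, adjusted p = 3.86e-07). Its interaction was -0.34 (95% interval -1.004 to 0.33).

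BBC3, which encodes PUMA, a BH3-only target of p53, had 15.5 and 14.4 CPM in untreated libraries, 11.4 and 13.4 with indisulam, 22.7 and 18.5 with SPHINX31, and 19.0 and 21.6 with the combination. It was higher in both groups with SPHINX31, by 0.47 with SPHINX31 alone (edgeR adjusted p = 0.015), by 0.44 with the combination (0.00345) and by 0.71 in the combination against indisulam (0.00174). The SPHINX31 call ended without untreated replicate 1 (0.52, 0.0631), untreated replicate 2 (0.42, 0.121) or SPHINX31 replicate 1 (0.31, 0.156), and the combination call without combination replicate 2 (0.35, 0.0527). PMAIP1, which encodes NOXA, the BH3-only partner of MCL1, had 64.5 and 67.7 CPM in untreated, 49.7 and 50.9 in indisulam, 78.6 and 82.8 in SPHINX31 and 53.4 and 65.9 in combination libraries. PMAIP1 fell by 0.39 with indisulam (adjusted p = 0.00136). With SPHINX31 its difference was 0.29 (0.0377), a call that ended without any of the untreated or SPHINX31 libraries, at differences of 0.25 to 0.32. With the combination its difference was -0.15 (0.134), and it passed without combination replicate 2 (-0.31, 0.00416).

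BCL2L15 fell by 0.54 with indisulam and by 0.57 with the combination (edgeR adjusted p = 3.99e-05 and 1.69e-05), from 20.9 and 20.9 CPM in untreated to 14.8 and 13.9 in indisulam libraries. BCL2L13 was higher by 0.21 with SPHINX31 (0.0236), a call that ended without any of the 4 untreated and SPHINX31 libraries, at 0.20 to 0.21. The other genes behind these counts, named after their values were seen, were BNIP3L with indisulam (0.19) and the combination (0.27), and BCL2L14 (2.13, at 3 to 20 counts) and BCL2L12 (-0.30) with the combination. Without untreated replicate 2 the BNIP3L calls ended (0.08 and 0.15), as did that of BCL2L12 (-0.24). The indisulam call of BNIP3L also ended without indisulam replicate 1 (0.21) or 2 (0.18), and the BCL2L12 call without combination replicate 2 (-0.23).

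**Figure D4:**
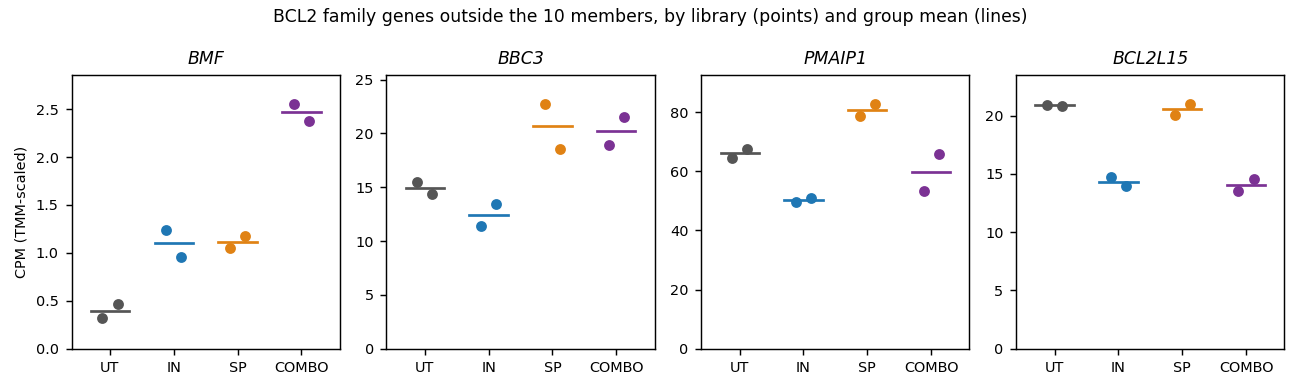
TMM-scaled CPM (vertical axes, from 0) of BMF, BBC3, PMAIP1 and BCL2L15 in each library, with UT for untreated, IN for indisulam, SP for SPHINX31 and COMBO for the combination. Points are libraries and lines are means. BMF is highest in both combination libraries (2.55 and 2.38 CPM), BBC3 is higher in groups with SPHINX31 and BCL2L15 is lower in groups with indisulam.

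In the list of mitochondrial release and the apoptosome, 6 of 9 genes rose and 0 fell with indisulam. With SPHINX31 0 rose and 1 fell, and with the combination 4 rose and 1 fell. Of all tested genes, 20.1% rose and 23.5% fell with indisulam, 4.94% and 3.67% with SPHINX31, and 23.8% and 26.3% with the combination. The list was chosen with earlier results of these data known, so the counts beside these shares are a description and not a test. APAF1, the scaffold of the apoptosome, rose by 0.48 with indisulam and by 0.35 with the combination (edgeR adjusted p = 1.6e-05 and 0.000187). With SPHINX31 it fell by 0.28 (0.00807), a call that ended without untreated replicate 1 (-0.26, 0.0996) or SPHINX31 replicate 1 (-0.23, 0.0642). VDAC2, the outer-membrane channel that holds BAK1, rose by 0.42 with indisulam and by 0.36 with the combination. The indisulam calls of VDAC1 (0.13) and VDAC3 (0.17), named after their values were seen, ended without untreated replicate 1 (0.13 and 0.16) or untreated replicate 2 (0.14 and 0.18), and that of VDAC1 also without indisulam replicate 1 (0.12), indisulam replicate 2 (0.16) or combination replicate 2 (0.13). Named after their values were seen, AIFM1 (0.33 and 0.29) and the scarce DIABLO (0.87 and 1.01) rose with both, and CYCS, the cytochrome c gene, was lower with the combination (-0.12, adjusted p = 0.0397), a call that ended under 9 of 18 alternatives and was -0.08 without combination replicate 1. Among 7 caspases, 2 rose and 1 fell with indisulam, 0 passed with SPHINX31 (1 at an unadjusted p under 0.05), and 1 rose and 1 fell with the combination, beside the same shares of all tested genes. CASP2 rose by 0.72 with indisulam and by 0.63 with the combination (adjusted p = 1.62e-06 and 3.65e-06). The number that passed with indisulam was 1 to 3 when libraries were left out in turn. CASP10 was lower by 0.31 with indisulam (0.0221) and CASP6 by 0.18 with the combination (0.0494). The CASP10 call ended without untreated replicate 2 (-0.20), indisulam replicate 1 (-0.29) or indisulam replicate 2 (-0.32), and the CASP6 call under 14 of 18 alternatives, with values from -0.19 without untreated replicate 1 to -0.12 without combination replicate 1.

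Among inhibitors of caspases, XIAP, which binds caspases directly, fell by 0.49 with indisulam and by 0.42 with the combination (edgeR adjusted p = 1.09e-05 and 3.05e-05), and was the only one of 6 tested genes of its family to pass with indisulam. In either direction 1, 2 and 2 of the 6 passed with indisulam, SPHINX31 and the combination, beside 43.7%, 8.61% and 50% of all tested genes. With SPHINX31 1 rose and 1 fell: BIRC2 was higher by 0.26 (0.0367) and BIRC5 lower by 0.20 (0.022). The BIRC2 call ended without untreated replicate 1 (0.23), untreated replicate 2 (0.28) or SPHINX31 replicate 2 (0.19), and the BIRC5 call without untreated replicate 1 (-0.22), untreated replicate 2 (-0.19) or SPHINX31 replicate 1 (-0.18). With the combination 2 fell, XIAP and BIRC6, the latter by 0.25 (0.0226), which ended without untreated replicate 2 (-0.13) or combination replicate 2 (-0.20).

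In the death receptor list, 2 of 9 tested genes rose and 4 fell with indisulam, 1 rose and 1 fell with SPHINX31, and 1 rose and 2 fell with the combination, or 6, 2 and 3 of 9 beside 43.7%, 8.61% and 50% of all tested genes. The indisulam count was 3 to 6 when libraries were left out in turn. The death ligand TNFSF10, or TRAIL, rose by 0.40 with indisulam and fell by 0.61 with SPHINX31 (edgeR adjusted p = 0.000554 and 0.00033), and with the combination it differed by 0.02 (95% interval -0.14 to 0.18). Its receptor TNFRSF10B was higher by 0.30 with SPHINX31 (edgeR adjusted p = 0.00303) and lower with indisulam (-0.19, 0.00869), the latter call ending without untreated replicate 1 (-0.19, 0.0519), untreated replicate 2 (-0.19, 0.055) or indisulam replicate 1 (-0.18, 0.0574). Named after their values were seen, the receptor TNFRSF10A was lower with indisulam (-0.28) and with the combination (-0.22), and CFLAR, an inhibitor of caspase 8, with indisulam (-0.19). The TNFRSF10A call with the combination ended without untreated replicate 2 (-0.17) or combination replicate 1 (-0.16), and the CFLAR call without untreated replicate 1 (-0.18), untreated replicate 2 (-0.19) or indisulam replicate 2 (-0.12). The kinase RIPK1 fell by 0.32 with indisulam and by 0.40 with the combination. The adaptor TRADD was higher by 0.34 with indisulam and by 0.45 with the combination, calls that ended without untreated replicate 2 (0.28 and 0.39), and also without untreated replicate 1 (0.40) or indisulam replicate 2 (0.27) for the former and combination replicate 1 (0.23) for the latter. Of 6 genes that control the stability of the MCL1 protein, 1 rose and 3 fell with indisulam, 0 passed with SPHINX31 (1 at an unadjusted p under 0.05), and 1 rose and 3 fell with the combination, beside the same shares of all tested genes. The riser, the ubiquitin ligase gene MARCHF5, named after its values were seen, was at 0.18 with indisulam and 0.21 with the combination. Its indisulam call ended without untreated replicate 1 (0.16), untreated replicate 2 (0.20) or indisulam replicate 2 (0.16), and its combination call without untreated replicate 1 (0.19) or combination replicate 2 (0.16). The ubiquitin ligase genes BTRC and HUWE1 fell by 0.72 and 0.49 with indisulam and by 0.86 and 0.60 with the combination, and the gene of the deubiquitinase USP9X, named after its values were seen, fell by 0.36 and 0.50. The MCL1 RNA values above say nothing of the protein that these enzymes act on.

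**Figure D5:**
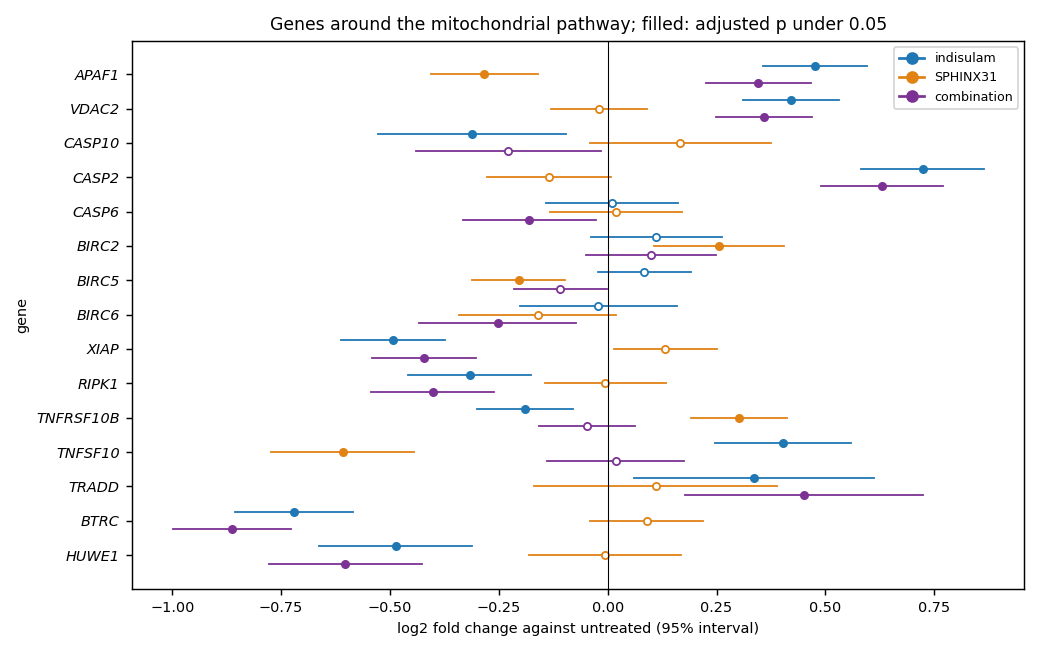
Log2 fold change against untreated (horizontal axis) of the strongest passing genes in the lists of mitochondrial release, caspases, caspase inhibitors, death receptors and MCL1 turnover, with 95% intervals from the edgeR fit. Colours are treatments, and filled points had an adjusted p under 0.05. Genes named after their values were seen, such as the scarce DIABLO, are not plotted. Among the genes plotted, CASP2 lies farthest to the right (0.72 with indisulam) and BTRC farthest to the left (-0.86 with the combination).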

How the data were processed

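RNA from A549 cells was converted to poly(A)-selected, stranded libraries and sequenced in paired 150 bp reads. The deposited values were whole-number read counts per Ensembl gene, and the submitters' processing notes name HISAT2 2.2.1, HTSeq and GRCh38. The annotation and strand setting of the counting are not given in the sources used here. Rows for reads outside genes, ambiguous or not unique (14.0% to 17.0% of each library) were left out. Counts of the 8 libraries were fitted together with edgeR 4.0.16 (R 4.3.3) by the quasi-likelihood test, with TMM scaling, filterByExpr, group means only (4 residual degrees of freedom), and Benjamini-Hochberg adjustment over 18661 genes at a threshold of 0.05. The common biological coefficient of variation was 0.0491. CPM are TMM-scaled, and gene models come from GENCODE 44. Overlaps with other genes were examined only for the 10 genes, and not for genes of the other lists such as DIABLO. Beyond the 10 genes, the text names for each list the strongest passing genes with indisulam and with the combination, 2 each (mean log2 CPM 1 or more), plus those passing with SPHINX31. Members and lists were chosen with earlier results of these data known. Scripts were tested on simulated data. DESeq2 1.42.0, other scalings and filters, GC correction, replicate blocks and leaving out each library were the alternatives. Intervals cover the spread between these libraries only.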

Additional observations from a re-analysis of the deposited data

How the results depend on the processing

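With 2 technical replicates per group, small differences rested on single libraries. No difference of the 10 genes that passed changed sign under an alternative. Some that did not pass did, such as BCL2L11 with the combination (-0.02 to 0.20 when libraries were left out). The number of the 10 genes that passed was 2 to 4 with indisulam, 1 to 1 with SPHINX31, 4 to 6 with the combination, 1 to 2 for combination against indisulam, 2 to 4 for combination against SPHINX31 and 0 to 0 for the interaction when libraries were left out in turn. It was 2 with SPHINX31 under GC correction, which added BAX. With lengths of the longest annotated transcript, the ratio of antiapoptotic to effector RNA was 2.14 in untreated, 1.48 in indisulam, 1.95 in SPHINX31 and 1.19 in combination libraries, in the same order as with exon lengths. Over 9946 genes, same-numbered libraries deviated together between untreated and SPHINX31 (correlation 0.45) or the combination (0.17) but oppositely between indisulam and untreated (-0.57) or SPHINX31 (-0.49), so the numbers were not taken as pairs. When replicate number entered as a replicate block, 3, 1 and 6 of the 10 genes passed with indisulam, SPHINX31 and the combination, the BAD call with indisulam being lost (-0.32, adjusted p = 0.0647 in edgeR), and 2, 4 and 0 in the other comparisons. With the indisulam numbers exchanged, a fit chosen after seeing the data, 5, 1 and 6 passed. Over all genes, the count with SPHINX31 was 1606 and became 2605 with GC correction and 482 to 697 without untreated replicate 1, untreated replicate 2 or SPHINX31 replicate 1, and that of combination against indisulam was 1399 and became 2232 with GC correction and 440 to 696 without indisulam replicate 1 or either combination replicate. The interaction count of 0 became 31 with DESeq2, 94 with a looser filter and 7 with GC correction. Depth limited BCL2 and HRK, with at most 163 and 51 counts per library.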
